A study of Homo sapiens with 2 samples.

Results

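ANK3, the gene of the membrane adaptor ankyrin-G, held 16 of the 2960 deletion sites in a list from crosslinking and immunoprecipitation of the splicing factor SF3A1. The members are every listed base inside the RefSeq gene body of ANK3 (gene ID 288) on chromosome 10, from 60026298 to 60733528 in GRCh38, a length of 707 kb. ANK3 was selected on its number of listed sites, so that number and its density are given as a description, with no test. The material was C4-2B, a prostate cancer cell line derived from LNCaP, in a version made ready for CRISPR interference. Its 2 libraries form 1 group, both made with 2 µg of anti-SF3A1 antibody from cells collected 48 h after plating and irradiated at 254 nm (400 mJ/cm2). The labels name no treatment, second line or control group, and the list pools both libraries, so no value has an error between replicates. Depth per library is unknown. What the list cannot show is the level of an RNA, since it holds only bases past the FDR of 10 percent in the authors' analysis.

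Ankyrin-G ties proteins of the plasma membrane to the spectrin skeleton beneath it. In epithelial cells it is known from the lateral membrane, where it binds E-cadherin, and in neurons from the axon initial segment, where it gathers sodium channels. SF3A1 belongs to the U2 snRNP, the particle that recognises the branch point of an intron before splicing. When protein is crosslinked to RNA, reverse transcriptase can skip the bound base, so a deletion shared by many sequenced tags can mark a contact. The labels name no control group, so whether the listed deletions mark contacts was not tested, also where every tag lacks the base. Each site has 2 counts here: the tags over the base and those among them that lack it, whose part of all tags is called the deleted share.

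ANK3 is transcribed from the minus strand, and RefSeq places 4 starts of its transcripts along the gene body. They are shown because they divide the gene into the stretches by which the sites are described. The starts lie at 60733528, 60572956, 60389875 and 60140740, which puts the last 3 at 161, 344 and 593 kb from the first. Each line gives the 300 bases around a start, 250 before it and 50 from it on, read 5′ to 3′ on the minus strand, with the bases from the start on in capitals.
Start 1, chr10:60733479-60733778: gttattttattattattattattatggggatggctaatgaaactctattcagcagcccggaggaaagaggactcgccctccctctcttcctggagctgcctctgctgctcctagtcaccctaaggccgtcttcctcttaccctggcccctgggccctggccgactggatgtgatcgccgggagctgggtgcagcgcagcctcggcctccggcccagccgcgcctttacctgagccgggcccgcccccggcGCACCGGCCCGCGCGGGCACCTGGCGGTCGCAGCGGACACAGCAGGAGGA
Start 2, chr10:60572907-60573206: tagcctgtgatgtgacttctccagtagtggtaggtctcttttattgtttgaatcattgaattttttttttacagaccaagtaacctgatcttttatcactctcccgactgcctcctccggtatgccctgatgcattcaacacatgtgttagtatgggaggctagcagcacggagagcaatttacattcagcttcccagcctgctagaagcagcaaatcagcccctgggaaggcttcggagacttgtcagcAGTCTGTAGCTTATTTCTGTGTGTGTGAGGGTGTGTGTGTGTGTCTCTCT
Start 3, chr10:60389826-60390125: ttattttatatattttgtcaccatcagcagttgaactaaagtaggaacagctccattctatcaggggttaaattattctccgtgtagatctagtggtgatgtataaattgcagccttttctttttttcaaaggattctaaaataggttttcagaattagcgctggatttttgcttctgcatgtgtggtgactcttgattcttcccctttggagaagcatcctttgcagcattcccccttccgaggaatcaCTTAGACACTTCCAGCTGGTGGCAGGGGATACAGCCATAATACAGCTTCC
Start 4, chr10:60140691-60140990: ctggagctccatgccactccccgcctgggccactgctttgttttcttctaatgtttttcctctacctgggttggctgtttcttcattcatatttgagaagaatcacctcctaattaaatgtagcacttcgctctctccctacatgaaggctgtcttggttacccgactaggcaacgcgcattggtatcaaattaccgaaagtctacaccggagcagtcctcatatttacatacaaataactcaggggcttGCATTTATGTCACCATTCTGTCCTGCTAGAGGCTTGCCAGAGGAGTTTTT
The sequences are those of RefSeq, build GRCh38.p14. The window of start 1 was 64.0% G and C with 22 CG pairs. The windows of starts 2, 3 and 4 had 46.3%, 40.7% and 46.0% G and C and held 4, 3 and 7 CG pairs. The median of all 35116 RefSeq windows of this kind was 58.7% with 14 CG pairs, so start 1 was above the median and the other starts below it. The letters TATAAA, searched on both strands, were found only in the window of start 3 among these 4, and in 11.5% of all windows. No listed site fell in any of the 4 windows: the site nearest to a start lay 14.8 kb from it. Each window spans 300 bases, against a gene body of 707 kb, so sites placed without regard to the starts would rarely fall in one.

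All 16 sites lay on the minus strand, the strand of ANK3. In the other protein-coding genes of known strand that overlap no annotated gene, 640 of 655 sites were on the gene's strand (97.7%, 95% Clopper-Pearson interval 96.3 to 98.7). The ANK3 sites therefore followed the general pattern. None of the 16 fell within the noncoding RNA gene LOC124902430 or the pseudogene ARL4AP1, both annotated inside ANK3, so each site belonged to 1 annotated gene. No base outside ANK3 was listed within 1 Mb of it. Of the 9 other protein-coding genes within 1 Mb, among them CCDC6, known as a fusion partner of the kinase RET, and the cell cycle kinase gene CDK1, 0 held a site, against 10.1% of all protein-coding genes, so this count is near the background. The nearest listed base on the 5′ side lay 1210 kb beyond the gene, at 61943832 in ARID5B with 29 of 29 tags deleted. On the 3′ side it lay 1641 kb away, at 58385702 in TFAM with 28 of 28 tags deleted. ANK3 held 11.9% of the 135 sites of chromosome 10.

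The sites are numbered 1 to 16 here in the direction of transcription. Between start 1 and start 2, a stretch of 161 kb, lay 3 of them. Site 1, at 60700342, was 33.2 kb from start 1 and had the deletion in 43 of 44 tags. Site 2, at 60687565, and site 3, at 60644735, had it in 92 of 92 tags each. Sites 2 and 3 were thus above the upper quartile of the whole list, 90 deleted tags, and site 1 was below its median of 50. The first stretch held 1 undeleted tag and 1.87 sites per 100 kb.

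The stretch of 183 kb between starts 2 and 3 held 7 sites, or 3.82 per 100 kb, the highest density of the 4 stretches. It included the deepest sites of the gene as well as the shallowest. Site 5, at 60528458, had 334 of 334 tags deleted, which made it the 19th deepest of the 2960 listed bases by deleted tags. Site 10, at 60441916, followed with 245 of 245 tags and was the 50th. Together these 2 sites held 39.8% of the 1454 deleted tags of ANK3. At the other end, site 4 (60557023) had 21 of 21 tags, site 6 (60501358) 19 of 19 and site 7 (60486027) 27 of 27. The sites 5 and 6, deepest and shallowest, were neighbours 27.1 kb apart, and their deleted tags differed 17.6-fold. Site 8 (60463562) had 82 of 82 tags. Site 9 (60449822) had 40 of 43 and was the 1 site of this stretch at which some tags kept the base.

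Between starts 3 and 4, over 249 kb, lay 5 sites, or 2.01 per 100 kb. Here tags without the deletion were gathered. Site 11, at 60375071, had the deletion in 113 of 129 tags, or 87.6% (95% Clopper-Pearson interval 80.6 to 92.7). Site 14, at 60313506, had it in 90 of 101, or 89.1% (81.3 to 94.4). These were the lowest deleted shares in ANK3 and do not differ beyond their intervals. Site 12 (60334067) had 45 of 46 tags deleted and site 13 (60326413) 67 of 68. Site 15 (60289788), with 51 of 51, was the only complete site of the stretch. In all, 29 of the 33 undeleted tags of ANK3 came from here, and 27 of them from sites 11 and 14. The division into complete and incomplete sites by stretch was noticed after the values were seen and was not tested.

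The last stretch, from start 4 to the end of the gene, was 114 kb long and held site 16 alone, at 60078831, with 93 of 93 tags deleted. That is 0.874 sites per 100 kb, the lowest density of the 4 stretches. Between sites 15 and 16 no base was listed over 211 kb, or 29.8% of the gene body, a stretch that runs across start 4. The absence of a site does not show that these bases had no tags.

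**Figure D1:**
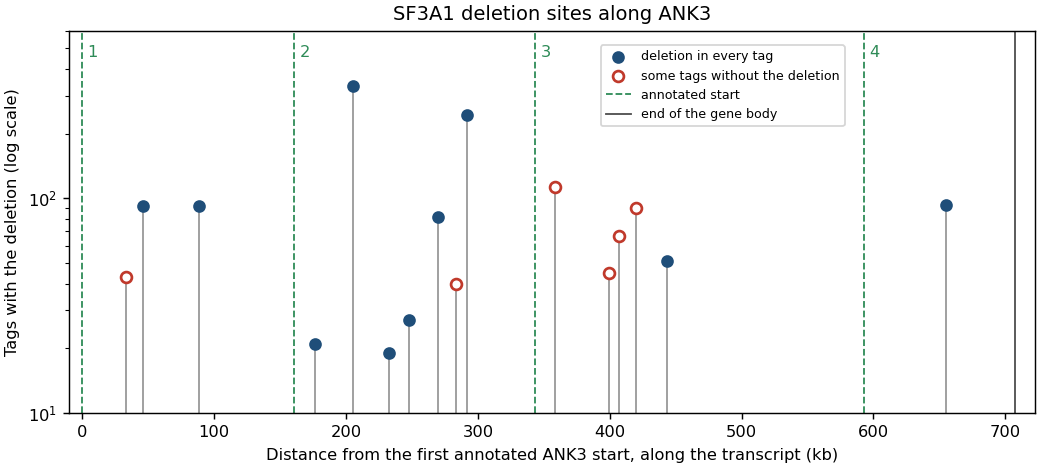
Deleted tags (log axis) at each of the 16 ANK3 sites against distance from the first annotated start, in kb along the transcript. Filled points are the 10 sites with the deletion in every tag and open points the 6 others; dashed lines are the 4 annotated starts. The 2 deepest sites, with 334 and 245 deleted tags, lie between starts 2 and 3, 4 of the 6 open points lie between starts 3 and 4, and 1 site lies beyond start 4.

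The spacing of the sites was uneven. The 15 gaps between neighbours ran from 7.65 kb, between sites 12 and 13, to 211 kb, with a median of 23.7 kb, or 48.7 kb between the 10 sites above the list's median of 50 deleted tags. Even spacing of 16 sites over the gene body would put them 41.6 kb apart, and 11 of the 15 gaps were shorter than that. Sites placed at random would also leave mostly gaps below the even spacing, and a departure from random placement was not tested. The longest gap decided the mean, which was 41.4 kb with it and 29.3 kb without it. Sites 12 to 14 lay within 20.6 kb. Sites 4 to 10 lay within 115 kb, with gaps between them of up to 28.6 kb. The part of the gene before its midpoint held 10 sites and the part after it 6. The first site lay 33.2 kb from start 1 and the last 52.5 kb from the end of the gene, so no site was at either edge.

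The deletion was present in every tag at 10 of the 16 ANK3 sites, or 62.5% (95% Clopper-Pearson interval 35.4 to 84.8). In the whole list this was so at 75.8% of sites, and in the 2555 sites of other protein-coding gene bodies at 77.4%. The interval treats the sites as independent, although they lie in 1 gene and 1 pool, so the difference has no test. The lowest deleted share was 87.6% among the 16 ANK3 sites and 3.27% among the 2555 other protein-coding sites, a far larger set in which a lower minimum is likelier. A share of 90% or more was found at 14 of 16 ANK3 sites, or 87.5%, and at 94.2% of the other protein-coding sites. Whether a base missing from every tag marks a contact was not tested. The intervals of deleted shares at single sites cover counting error only and treat tags as independent molecules.

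ANK3 sites carried a median of 74.5 deleted tags (interquartile range 42.2 to 92.2, lowest 19, highest 334), against a median of 49 in other protein-coding genes (28 to 89, lowest 13, highest 2628). The ranges overlapped almost wholly, and the upper quartiles were close. More deleted tags than the list's median of 50 were found at 10 of the 16 ANK3 sites, against 49.5% of all sites. Sites of 1 gene share their transcript and cannot stand as replicates, so this difference has no test.

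**Figure D2:**
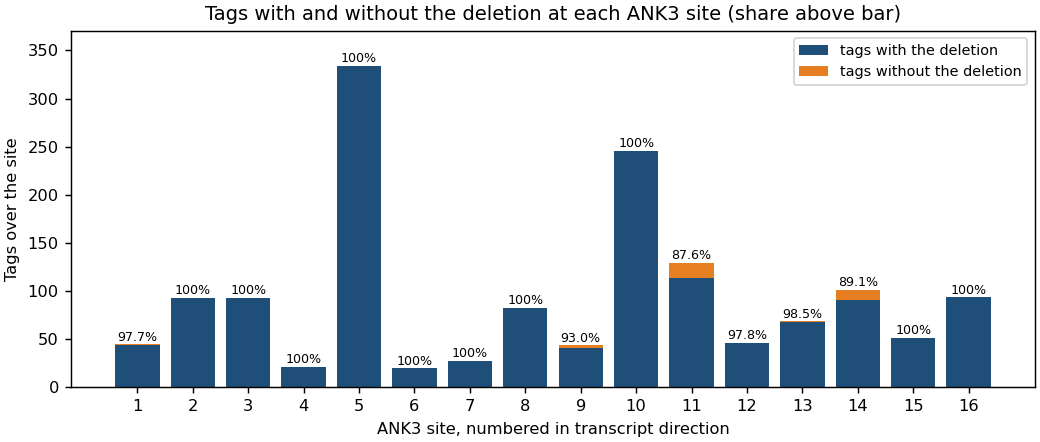
Tags over each ANK3 site, numbered in the direction of transcription, split into tags with the deletion (dark) and without it (orange), with the deleted share above each bar. Sites 5 and 10 stand above the rest with 334 and 245 tags, and the 16 and 11 undeleted tags of sites 11 and 14 are the largest numbers without the deletion.

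Across the 19866 protein-coding genes of the RefSeq table, 2014 held a site on either strand, or 10.1%. ANK3 held more sites than any other of them, and among annotated nuclear genes of all kinds MIR99AHG and MALAT1 had more, with 25 and 17. Its 2.26 sites per 100 kb compare with 0.204 per 100 kb over all other protein-coding gene bodies, an 11.1-fold difference. Counting only ANK3 sites above the list's median of deleted tags, its density was 1.41. This value cannot be set against 0.204, which counts sites of any depth. Of the 2555 other protein-coding sites, 1255 were above that median. Short genes reach high densities with 1 site, and ANK3 was at place 890 of the protein-coding genes by density. Among genes of 500 kb or more it had the highest density. Of the other 314 genes of that length 23.6% held a site, at 0.0519 sites per 100 kb together and at most 1.28 in 1 gene. The density of ANK3 was 43.6 times their joint density. This follows from the choice of the gene and is no test.

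Genes as long as ANK3 mostly held few sites or none. Of the 20 nearest in length, between 686 and 727 kb long, 3 held a site, or 15%, and of the 50 nearest 11, or 22%, against 10.1% of all protein-coding genes. CDKAL1, which encodes an enzyme that modifies tRNA, held 3 sites with 27 to 57 deleted tags. PARD3, a scaffold of cell polarity, held 1 site with 113 deleted tags, and ULK4, a gene of the ULK kinase family, 1 site with 46. The other 17, among them the calcium channel gene CACNA1C and the cadherin gene CDH4, held none. The 20 genes together had 0.0355 sites per 100 kb. Which of these genes C4-2B cells transcribe was not measured here, so site numbers cannot be set against RNA levels.

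**Figure D3:**
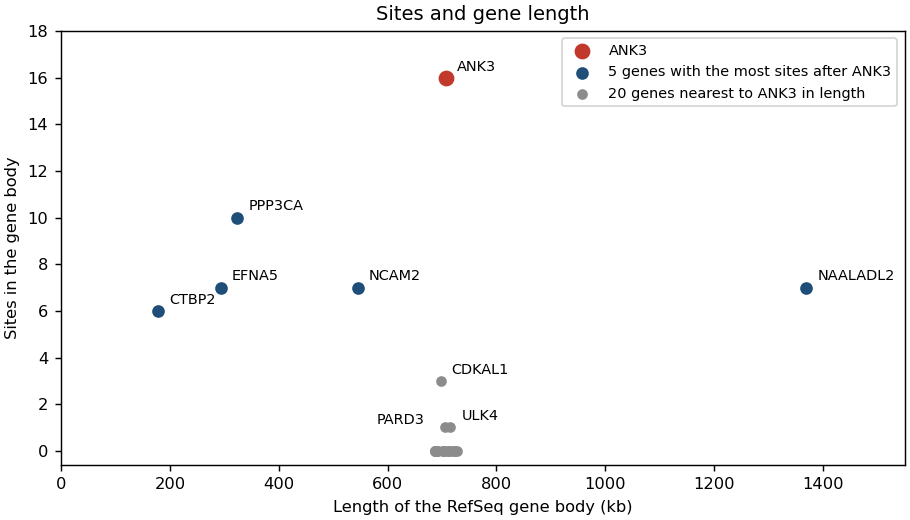
Number of sites in the gene body against its length in kb, for ANK3 (red), the 5 protein-coding genes with the next most sites (blue) and the 20 protein-coding genes nearest to ANK3 in length (grey). ANK3 stands at 16 sites and 707 kb, while the genes of similar length hold 0 to 3.

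The protein-coding genes most like ANK3 by number of sites were PPP3CA, EFNA5, NCAM2, NAALADL2 and CTBP2; ties at 6 sites were broken by density. PPP3CA, the catalytic subunit of calcineurin, held 10 sites at 3.09 per 100 kb. CTBP2, a transcriptional corepressor gene, held 6 sites at 3.37 per 100 kb in 178 kb. EFNA5, which encodes an ephrin ligand, held 7 at 2.38 per 100 kb, close to the density of ANK3. The adhesion molecule gene NCAM2 had 7 sites at 1.28 per 100 kb and NAALADL2 had 7 at 0.511 in a body of 1370 kb. ANK3 had the most sites of the 6 genes but was below PPP3CA, CTBP2 and EFNA5 in density. In each of the 6 genes every site lay on a single strand.

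The longest gap between neighbouring sites took up 29.8% of the body in ANK3, 22.7% in PPP3CA, 41.7% in EFNA5, 49.5% in NCAM2, 28.9% in NAALADL2 and 32.8% in CTBP2. In NAALADL2 the stretch before the first site was longer still, at 30.6% of the body. The median gap was 23.7 kb in ANK3, 21.5 kb in PPP3CA and 21.6 kb in CTBP2, against 33.3 kb in EFNA5, 49.3 kb in NCAM2 and 47.8 kb in NAALADL2. The lowest deleted share was 87.6% in ANK3, and in the other 5 genes it ran from 90.9% in CTBP2 to 98.9% in NCAM2. The least completely deleted site of the 6 genes was thus site 11 of ANK3, the gene with the most sites to draw from.

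**Figure D4:**
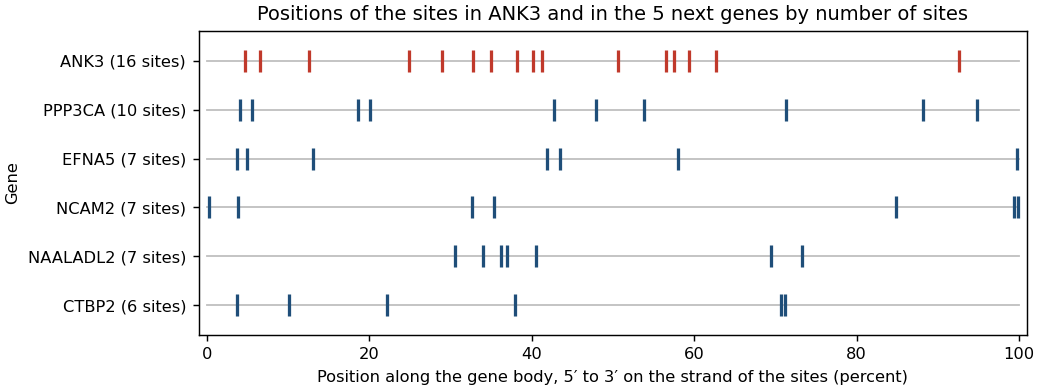
Positions of all sites in ANK3 and in the 5 protein-coding genes with the next most sites, as percent of the gene body from 5′ to 3′ on the strand of the sites; each tick is 1 site. The ANK3 sites run from 4.69% to 92.6% with the stretch between 62.7% and 92.6% empty, while the first NAALADL2 site lies at 30.6%.

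Of the 3 ankyrin genes, only ANK3, which was chosen for its number of sites, held sites in this list. A site was found in 23.6% of the other protein-coding genes of 500 kb or more and in 10.1% of all protein-coding genes. No site in ANK1 or ANK2 was thus the usual outcome. ANK2, whose product ankyrin-B serves heart and brain, is nearly as long as ANK3 at 678 kb and held none. ANK1, the ankyrin of the red cell, is 244 kb long and held none either. Neither count says whether these genes are transcribed in C4-2B.

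The partners of ankyrin-G were described through a list of 44 genes, all of them found in the RefSeq table. Of these, 13 held a site, or 29.5% (95% Clopper-Pearson interval 16.8 to 45.2), against 10.1% of all protein-coding genes. The partner genes are longer, with a median of 110 kb against 24.5 kb. Among the protein-coding genes between the quartiles of their lengths, 61.5 and 213 kb, 18.1% held a site. Of the 14 partner genes whose body overlaps no other annotated gene, 3 held a site, against 7.09% of all such protein-coding genes, a share not matched for length. No partner held more than 2 sites, so none came near the number in ANK3.

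Of 7 spectrins, the rods of the membrane skeleton, 2 held a site, among them SPTAN1 with 1 site and 38 of 38 tags deleted. SPTBN1, SPTBN4, SPTBN5 and SPTB held none. Of the adducins and band 4.1 proteins, which join spectrin to actin, 3 of 7 held a site: ADD3 with 185 of 185 tags deleted, ADD1 with 152 of 153 and EPB41 with 43 of 43. Beside these small groups stands the 18.1% of protein-coding genes between the quartiles of the partners' lengths, and no group was tested. The site in ADD3 was the deepest in the list of partners.

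Of 7 adhesion molecules and catenins, 2 held a site, against 18.1% of protein-coding genes between the quartiles of the partners' lengths. CDH1, which encodes the epithelial partner E-cadherin, held 1 with 64 of 65 tags deleted. CTNNA1, alpha-catenin, held 1 with 40 of 40. The neural partners NFASC, NRCAM, L1CAM and CHL1 had no site, and neither had the catenin gene CTNNB1. Of 10 channel and pump genes, 1 held a site. The sodium channel genes SCN1A, SCN2A, SCN3A and SCN8A and the potassium channel gene KCNQ3 held none.

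Of 8 linker and microtubule genes, 3 held 1 site each: CLASP2, which stabilises microtubule ends, with 98 of 98 tags deleted, NDEL1, a regulator of dynein, with 64 of 64, and MAPRE1, an end-binding protein, with 22 of 22. Of 5 genes of modifying enzymes, the deubiquitinase gene USP9X held 1 site with 140 of 140 tags and the kinase gene GSK3B 1 with 115 of 115. Neither group was tested against the 18.1% of protein-coding genes between the quartiles of the partners' lengths. In the whole list of partners 11 of 14 sites were complete, against 77.4% of protein-coding sites outside ANK3. All 9 sites in partner genes of known strand lay on the strand of the gene. In other protein-coding genes of known strand that overlap no annotated gene, this was so at 97.7% of sites. Both counts were near these shares.

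The list gives no RNA levels, so the labelled cell type could be set only against which marker genes held a site. Of 14 genes of the prostate luminal epithelium, 8 did, against 10.1% of all protein-coding genes, among them KLK3, the gene of prostate-specific antigen, with 4 sites. HOXB13, KRT8, KRT18, EPCAM and STEAP2 held none. Of 14 markers of basal, stromal, blood, endothelial and neuronal cells, 0 held a site, a count near that background.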

How the data were processed

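The authors deposited 1 list of single bases, which by its name pools the unique tags of the 2 libraries and keeps deletions past an FDR of 10 percent in an analysis of crosslink-induced mutation sites. Its values are deposited counts, not normalized: the tags with the deletion and, in the other deposited field, the name of each base, the tags over it. Build hg38 and the tools UMI-tools, SAMtools, cutadapt and BWA 0.7.17 are named per the submitters' processing notes; what each did and the caller of the sites are not given in the sources used.

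Gene bodies (58954 on main chromosomes), gene strand and starts came from RefSeq tables of GRCh38.p14, whose main chromosomes have the coordinates of hg38. A gene held a site if the base lay in its body on either strand. Coordinates are 1-based. Exons, splice sites and the deleted base were not analysed here. Intervals are exact Clopper-Pearson at 95%. Counting was tested on simulated data. ANK3, the lists and the comparisons were chosen with earlier results of these data known. Named genes were ANK3, ANK1, ANK2, partners with a site, the 5 genes with the most sites after ANK3, up to 5 length neighbours with a site and protein-coding neighbours within 1 Mb with a site; genes named as holding none, and the division of ANK3 by its starts, were chosen after the values were seen. Some genes of the lists, and their sites, are counted but not reported by name here. Alternatives are given in the closing section. The software was scipy 1.17.1, pandas 2.3.3 and numpy 2.4.6 under Python 3.11.15.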

Additional observations from a re-analysis of the deposited data

How the results depend on the processing

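The 16 sites of ANK3 were 16 with the gene body widened by 10 kb, with sites merged within 50 nt and on the minus strand alone, and 13 with at least 30 tags. They were 10 where a site needed more deleted tags than the list's median, which gives 1.41 in place of 2.26 sites per 100 kb, and 2 among sites with a deleted share under 0.9, settings that by construction keep fewer sites. Between the 10 deeper sites the median gap was 48.7 kb, against 23.7 kb as reported. The share of complete sites, 62.5%, became 87.5% when a deleted share of 0.9 or more counted as complete. Of the partner genes, 13 held a site; among the 14 that overlap no other annotated gene it was 3, or 21.4%, against 7.09% of all such protein-coding genes. In all, 15 of 21 alternatives gave a value within 1.5 times the reported count or within its interval. These include the place of ANK3 as the protein-coding gene with the most sites, which was kept in 4 alternatives. In 1 of these only genes overlapping no other gene were set against ANK3, which itself overlaps LOC124902430 and ARL4AP1 and was exempt. Another, counting sites on the gene's own strand, was added once the values were known. The distance of the sites to the nearest exon was not run, for want of an exon annotation here. No paired analysis was possible because the 2 libraries form 1 group and their values are pooled. Leaving out a library was not possible for the same reason.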

Other observations

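ANK3 was 1 of 22 protein-coding genes longer than 100 kb with at least 2.26 sites per 100 kb. It was the longest of them at 707 kb, ahead of PPP3CA at 324 kb and EFNA5 at 294 kb. The other 21 held 3 to 10 sites each, and the limits of length and density allow no fewer than 3. NFIX, which encodes a transcription factor of the nuclear factor I family, had the highest density of the 22, with 5 sites in 103 kb, or 4.84 per 100 kb. This group was chosen after the values were seen, and its members share 1 pooled list, so no test is given.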
